A study of Mus musculus with 16 samples.

Results

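The genes described here are 7 genes known as markers of pericytes: Rgs5, Abcc9, Cspg4, Mcam, Heyl, Ndufa4l2 and Higd1b. They were taken by symbol from a count table of 54838 genes, and each symbol matched 1 gene. RNA was sequenced from the spleens of C57BL/6 mice of both sexes, with no allele or treatment stated in the labels for either group and with no age given. One group of 8 samples, here called size-selected, is the material held back by a cell strainer after the spleen had been minced, digested with enzymes including Dispase II and cleared of red blood cells; the labels call its source spleen glia. The other group of 8 samples is whole spleen; the labels repeat the same protocol for it, so how it was prepared is not stated separately. Each group has 4 male samples (numbers 407, 408, 427 and 435) and 4 female samples (436, 445, 447 and 460), and every number occurs once in each group. Whether a number stands for 1 mouse is not stated in the labels, so p-values measure only the spread between these samples. The title of the series concerns glia, and the design compares the size-selected material with whole spleen.

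Pericytes are contractile mural cells that lie in the basement membrane of capillaries and small venules, and they share an origin and many genes with the smooth muscle cells of larger vessels. They receive PDGF-B from endothelium through the receptor encoded by Pdgfrb, they respond to Notch ligands on endothelium, and they help to set capillary tone and permeability. No single gene marks them alone: each of the 7 genes is also known from at least some smooth muscle, endothelial or other cells, which is why the values below are set beside lists of genes for those cells. In bulk RNA, fewer cells of a type and less RNA per cell cannot be told apart.

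Library totals in size-selected samples were 13119992 to 19944440 counts, and those of whole spleen 12153770 to 16282454. Levels are given as CPM, a count scaled to the size of its library, after TMM scaling, as mean ± SD with n = 8 per group, and an SD covers the spread between samples, while counting error in the lowest values comes on top. Of 14510 genes tested with edgeR's quasi-likelihood test, 9855 passed a Benjamini-Hochberg adjusted p of 0.05, so that 37.5% of all genes tested were higher in size-selected samples and 30.4% were lower. Genes for other cells moved with the pericyte genes: the sum of 10 endothelial genes was 2447 to 6533 CPM in size-selected and 151 to 528 CPM in whole spleen samples, and the sum of 12 smooth muscle genes was 975 to 4698 CPM and 20.6 to 118 CPM. The 4 T cell genes summed to 37.9 to 309 CPM and 390 to 626 CPM. The 7 genes known to respond to tissue dissociation summed to 3069 to 6476 CPM and, in whole spleen, to 533 to 917 CPM. In the size-selected columns some genes, among them 6 of the 7 members, hold whole numbers times a constant below 1; values after division by it are said to be freed of a constant factor. The part of the other cells and of dissociation in the values below was not tested.

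The 6 genes that passed the filter on low counts, Rgs5, Abcc9, Cspg4, Mcam, Heyl and Ndufa4l2, were each higher in the size-selected samples, with log2 fold changes of 5.07 to 6.60. The background for that count is the 37.5% of all genes tested that were higher. For each of the 6 the lowest size-selected sample lay above the highest whole spleen sample, as did 23.3% of all genes tested, and each was higher in 8 of 8 pairs of samples with the same number, as were 31.3% of all genes tested. A log2 fold change at or above that of Mcam, the lowest of the 6, was found in 4.86% of all genes tested. Their median log2 fold change was 5.71, against 0.05 over all genes tested. Of the 6, only Abcc9 and Mcam also passed the filter on the whole spleen samples alone; Rgs5, Cspg4, Heyl and Ndufa4l2 passed through the size-selected group, where they are high, so their direction follows from the filter and these counts and the median are a description. Higd1b was too low to pass the filter and is described separately.

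**Figure D1:**
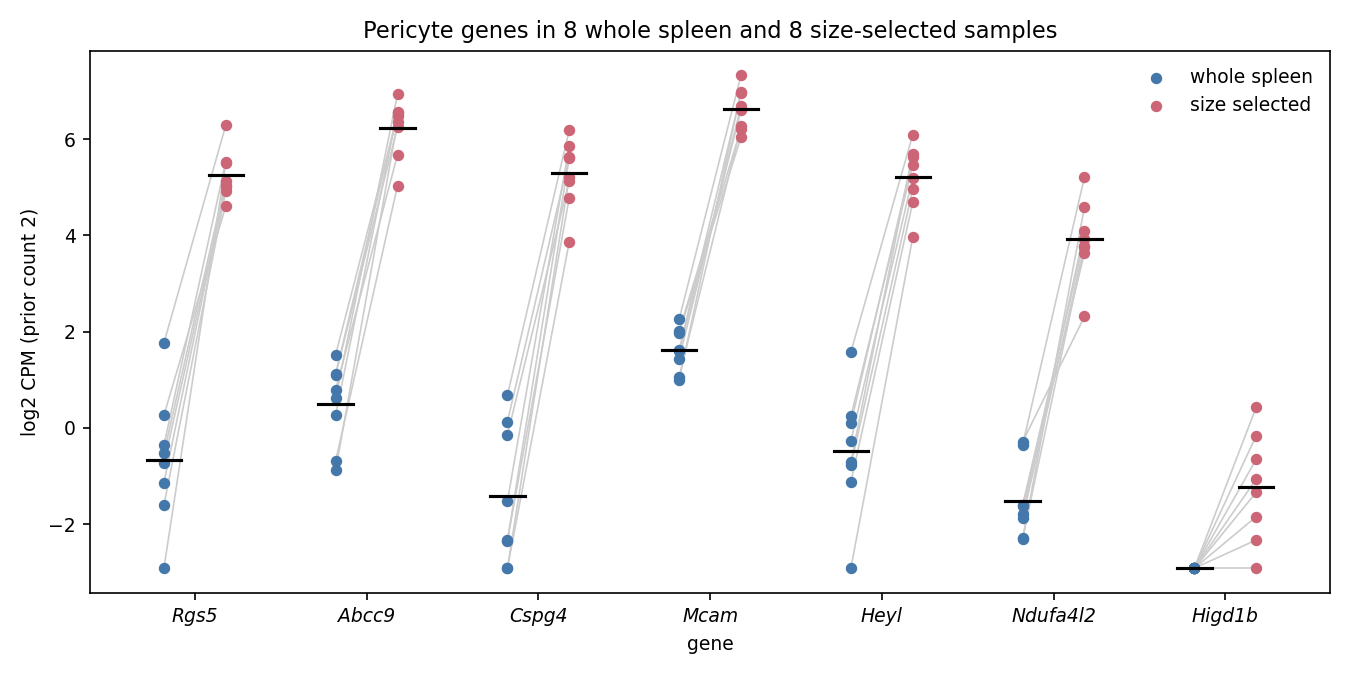
Level of each pericyte gene in every sample, as log2 CPM with a prior count of 2; blue points are the 8 whole spleen samples, red points the 8 size-selected samples, grey lines join samples with the same number and black bars are group means. The 2 groups do not overlap for Rgs5, Abcc9, Cspg4, Mcam, Heyl and Ndufa4l2, while 1 size-selected sample of Higd1b lies at the level of whole spleen, which is a count of 0.

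Rgs5 and Abcc9 act on the contractile state of mural cells. Rgs5 (ENSMUSG00000026678, mm10 chromosome 1, 169655501 to 169695813, plus strand) encodes a regulator of G protein signalling, which speeds the shut-off of G protein alpha subunits downstream of vasoactive receptors. It ran from 24.2 CPM in the lowest size-selected sample through a median of 33.8 to 77.9 CPM in the highest, and from 0 through 0.514 to 3.26 CPM in whole spleen, where the deposited counts were 0 to 40. The groups did not overlap, and the highest value in both was that of number 427. The means were 40.4 ± 16.9 and 0.815 ± 1.04 CPM, a ratio of 49.5, and the log2 fold change was 5.67 (SE 0.50), with an edgeR adjusted p of 1.26e-08. Abcc9 (ENSMUSG00000030249, chromosome 6, 142587862 to 142702315, minus strand) encodes SUR2, the sulfonylurea receptor subunit that regulates ATP-sensitive potassium (KATP) channels. Its size-selected samples ran from 32.5 through 85.7 to 122 CPM and its whole spleen samples from 0.412 through 1.51 to 2.74 CPM, with counts of 6 to 42. No whole spleen sample was at 0, and the lowest size-selected sample, number 435, was still above the highest whole spleen sample. The means were 80.0 ± 27.6 and 1.48 ± 0.80 CPM, and Abcc9 was higher by 5.76 on the log2 scale (SE 0.35; edgeR adjusted p = 2.03e-10).

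Cspg4 and Mcam encode proteins of the cell surface. Cspg4 (ENSMUSG00000032911, chromosome 9, 56865033 to 56899870, plus strand) encodes the NG2 chondroitin sulfate proteoglycan, which marks pericytes and, in the brain, oligodendrocyte precursors. Its size-selected values ran from 14.5 through 42.9 to 72.6 CPM and its whole spleen values from 0 through 0.140 to 1.47 CPM, with counts of 0 to 18. It was at 0 in 2 whole spleen samples, numbers 407 and 408. With means of 42.8 ± 18.2 and 0.443 ± 0.555 CPM, its log2 fold change of 6.60 was the largest of the 6 (SE 0.55, edgeR adjusted p = 6.05e-09). Of 7 genes of oligodendrocyte precursors, 1 passed the filter, Pdgfra, which fibroblasts also express (log2 fold change 8.04), and the defining genes Olig2 and Neu4 had no count in any of the 16 samples. The other 4 were low and were called higher in the fit with no filter: Sox10, also a gene of peripheral glia, at 3.50 ± 2.13 against 0.0768 ± 0.152 CPM (edgeR adjusted p = 2.35e-06), Olig1 at 0.237 ± 0.253 against 0.0102 ± 0.0289 CPM (0.00346), and Gpr17 and Lhfpl3, which were at 0 in all of whole spleen and in 6 and 5 size-selected samples. Mcam (ENSMUSG00000032135, chromosome 9, 44134469 to 44142727, plus strand) encodes CD146, an adhesion molecule of the immunoglobulin superfamily found on pericytes, smooth muscle and endothelium. It ran from 65.7 through 99.7 to 160 CPM in size-selected and from 1.87 through 2.92 to 4.65 CPM in whole spleen, where it had 26 to 57 counts. It had the most whole spleen counts of the 7 genes in every number but 447, where Abcc9 had 42 and Mcam 30. Mcam had the smallest log2 fold change of the 6, 5.07, and the smallest SE, 0.23 (means 103 ± 32.0 and 3.08 ± 0.98 CPM, edgeR adjusted p = 1.93e-11).

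Heyl is a target of Notch signalling. Heyl (ENSMUSG00000032744, chromosome 4, 123233556 to 123249875, plus strand) encodes a basic helix-loop-helix repressor of the Hey family. Its size-selected samples ran from 15.4 through 40.3 to 67.9 CPM and its whole spleen samples from 0 through 0.590 to 2.86 CPM, with 0 to 35 counts. As for Rgs5, number 427 was highest in both groups, and its whole spleen value of 2.86 CPM stood above the next at 1.05 CPM. The means were 40.2 ± 16.6 and 0.850 ± 0.877 CPM and the log2 fold change was 5.58 (SE 0.47, edgeR adjusted p = 7.09e-09).

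Ndufa4l2 and Higd1b encode mitochondrial proteins, each a paralog of a protein that most cells make. Ndufa4l2 (ENSMUSG00000040280, chromosome 10, 127514967 to 127517154, plus strand) is related to the respiratory chain subunit Ndufa4 and is known to be induced by hypoxia. It ran from 4.84 through 14.4 to 36.9 CPM in size-selected and from 0.0687 through 0.174 to 0.686 CPM in whole spleen, where it had 1 to 9 counts. Its means were 17.1 ± 9.59 and 0.271 ± 0.251 CPM and its log2 fold change was 5.98 (SE 0.47, edgeR adjusted p = 3.47e-09). Exons of Ndufa4l2 overlap those of Shmt2, a serine metabolism gene on the opposite strand, over 32 of 1095 bases, and whether reads were counted by strand is not given in the sources used here. Shmt2 was lower in size-selected samples, at 79.3 ± 6.75 against 114 ± 11.9 CPM. Higd1b (ENSMUSG00000020928, chromosome 11, 102835849 to 102838040, plus strand) belongs to the hypoxia-inducible domain family with Higd1a. It was above 0 in 7 of 8 size-selected samples, from 0 through 0.305 to 1.22 CPM (mean 0.413 ± 0.408), on a total of 52.8 deposited counts, and it had no count in any of the 8 whole spleen samples. A count of 0 over the group allows up to 3 counts, or 0.0268 CPM, so Higd1b was at least 15.4-fold higher in size-selected samples. In a fit with no filter it was called at an edgeR adjusted p of 0.000827, where 25.3% of 28235 genes were called higher. The fitted fold change of a gene at 0 in one group depends on the prior count and is not given.

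The sequence before the start of a gene is shown for 3 members, each higher in size-selected samples. Their different composition can so be seen beside the values. The table of RefSeq promoters on GRCm38.p6 held 4 of the 7 members, Rgs5, Abcc9, Cspg4 and Mcam. In each the 250 bases before the RefSeq start were searched on both strands for 6 motifs: the CArG box of serum response factor, TGGGAA (core of RBPJ sites, through which Notch acts), ACGTG (core of hypoxia-inducible factor sites), CATTCC (core of TEAD sites), GGGCGG (GC box) and TATAAA. Capitals mark matches, which for a match on the other strand read as its reverse complement, and the sequences stop where the annotated gene begins.
Rgs5, chr1:169655251-169655500, plus strand: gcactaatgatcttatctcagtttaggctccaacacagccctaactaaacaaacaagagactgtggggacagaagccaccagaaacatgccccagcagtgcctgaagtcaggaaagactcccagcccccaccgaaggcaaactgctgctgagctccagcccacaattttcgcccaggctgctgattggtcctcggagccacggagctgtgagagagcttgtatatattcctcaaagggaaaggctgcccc
Abcc9, chr6:142702316-142702524, minus strand: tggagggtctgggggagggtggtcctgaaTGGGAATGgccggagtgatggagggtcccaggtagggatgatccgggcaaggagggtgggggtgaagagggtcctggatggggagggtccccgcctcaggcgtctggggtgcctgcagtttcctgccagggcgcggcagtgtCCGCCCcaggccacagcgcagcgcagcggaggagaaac
Cspg4, chr9:56864854-56865032, plus strand: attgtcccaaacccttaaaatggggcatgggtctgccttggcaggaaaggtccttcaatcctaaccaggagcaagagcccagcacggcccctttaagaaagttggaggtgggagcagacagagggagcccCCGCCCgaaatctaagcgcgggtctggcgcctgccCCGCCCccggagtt
The first capital run of Abcc9 holds TGGGAA, 221 to 216 bases before the start, overlapping the reverse complement of CATTCC, 219 to 214 bases before it, and the second is a GC box. Both capital runs of Cspg4 are GC boxes, and Rgs5 held none of the 6 motifs. The window of Mcam held 5 GC boxes, all in the 189 of its 250 bases that lie inside the annotated gene. The last 71 bases of the Cspg4 window and 41 of the Abcc9 window lie inside their genes too. The GC content of the full windows was 53.6% for Rgs5, 60.4% for Cspg4, 66.8% for Abcc9 and 73.6% for Mcam. Over 32851 promoters of the same length, TGGGAA was found in 21.6%, CATTCC in 12.6%, GGGCGG in 32.7%, TATAAA in 12.4%, ACGTG in 16.6% and the CArG box in 1.47%. A match is a description of the letters and not of binding.

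Per length, Mcam was the highest of the 7 in size-selected samples, at 30.8 ± 9.56 CPM per kb of merged exons. Ndufa4l2 followed at 15.7 ± 8.76, then Abcc9 at 9.56 ± 3.30, Rgs5 at 8.88 ± 3.71, Heyl at 7.85 ± 3.24, Cspg4 at 3.59 ± 1.53 and Higd1b at 0.488 ± 0.482 CPM per kb. Within samples, Mcam was above Ndufa4l2, Heyl above Cspg4, and Cspg4 above Higd1b in 8 of 8 samples each. Ndufa4l2 was above Abcc9 in 6 of 8 samples, Abcc9 above Rgs5 in 5 of 8 and Rgs5 above Heyl in 5 of 8, so these neighbours were not told apart. These pairs were taken from the order of the same means, so the counts are a description with no test, and genes that are not neighbours were not compared. In whole spleen Mcam was again highest, at 0.919 ± 0.293 CPM per kb, Ndufa4l2 was at 0.247 ± 0.229, Rgs5 at 0.179 ± 0.229, Abcc9 at 0.176 ± 0.0958, Heyl at 0.166 ± 0.172 and Cspg4 at 0.0372 ± 0.0466 CPM per kb.

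The authors' deposited table of enriched genes lists all 7 members among 2201 genes. In the authors' deposited table the log2 fold changes start at 3.50 and the adjusted p-values end at 0.00995. The authors' deposited table gives log2 fold changes of 6.20 for Cspg4, 6.10 for Ndufa4l2, 5.84 for Abcc9, 5.63 for Rgs5, 5.53 for Heyl, 5.09 for Mcam and 4.63 for Higd1b. Ranked by fold change within the authors' deposited table, they stand between place 389 (Cspg4) and place 1312 (Higd1b). The mean TPM of the authors' deposited table was 50.9 in size-selected samples against 1.08 in whole spleen for Mcam, 30.3 against 0.366 for Ndufa4l2, and 1.53 against 0 for Higd1b.

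Other genes known from pericytes and mural cells were mostly high where the 7 were high. Of 25 such genes, 22 passed the filter, with a median log2 fold change of 5.39. In size-selected samples 20 were higher and 2 were lower, where 37.5% and 30.4% of all genes tested were. Several of the 20, among them Pdgfrb, Ednra, Cox4i2, Enpep and Tbx2, had whole spleen median counts of 2.5 to 5. They passed the filter through the size-selected group, so the count and the median are a description. The defining receptor gene Pdgfrb was at 128 ± 48.4 against 0.691 ± 0.714 CPM, a log2 fold change of 7.59 (SE 0.46), and Notch3, the Notch receptor of mural cells, at 117 ± 54.3 against 0.973 ± 1.35 CPM (6.94, SE 0.57). The intermediate filament gene Des (6.80), the endothelin receptor gene Ednra (7.12) and the aminopeptidase gene Enpep (6.42) were also higher. P2ry14 and Pde5a, which blood cells also express, had smaller log2 fold changes of 1.67 and 1.97. The smallest of the 20 was that of Anpep, an aminopeptidase gene also used as a pericyte marker, at 8.43 ± 2.31 against 4.34 ± 2.03 CPM (0.96), with groups that overlapped. The 2 lower genes were Ggt1 (-1.36) and Ebf1 (-1.03); Ebf1 is also known as a transcription factor of B cells. Vtn, Tbx18 (0.116 ± 0.152 CPM in size-selected samples) and Atp13a5 did not pass the filter. Of these, Vtn and Atp13a5 are known from brain pericytes. Vtn was at 1.85 ± 1.76 against 0.0270 ± 0.0763 CPM, higher in 8 of 8 pairs, and was called in the fit with no filter (edgeR adjusted p = 1.56e-05), as was Tbx18 (edgeR adjusted p = 0.0158, higher in 4 of 8 pairs and at 0 in all of whole spleen), while Atp13a5 had no count in any sample.

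Genes of neighbouring cell types were also higher. All 12 smooth muscle genes were higher, with a median log2 fold change of 6.21, as were all 8 fibroblast and reticular cell genes tested (6.36). The same held for 10 of 10 endothelial genes (4.45) and 6 of 6 mesothelial genes (6.18). Over all genes tested, 37.5% were higher and 30.4% were lower. The mesothelial genes had low counts in whole spleen, with medians from 0.5 for Wt1 to 4 for Upk3b, and passed the filter through the size-selected group. So did Myocd, Casq2 and Lmod1 of the smooth muscle list, with whole spleen median counts of 0, 0 and 3. Pdgfra and Pdpn of the fibroblast list (both 0) and Emcn of the endothelial list (4) passed likewise. The counts and medians of all these lists are therefore a description. All 4 T cell genes were lower, with a median of -1.73. The median of the 6 pericyte genes, 5.71, lay between those of the endothelial list and the smooth muscle list.

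**Figure D2:**
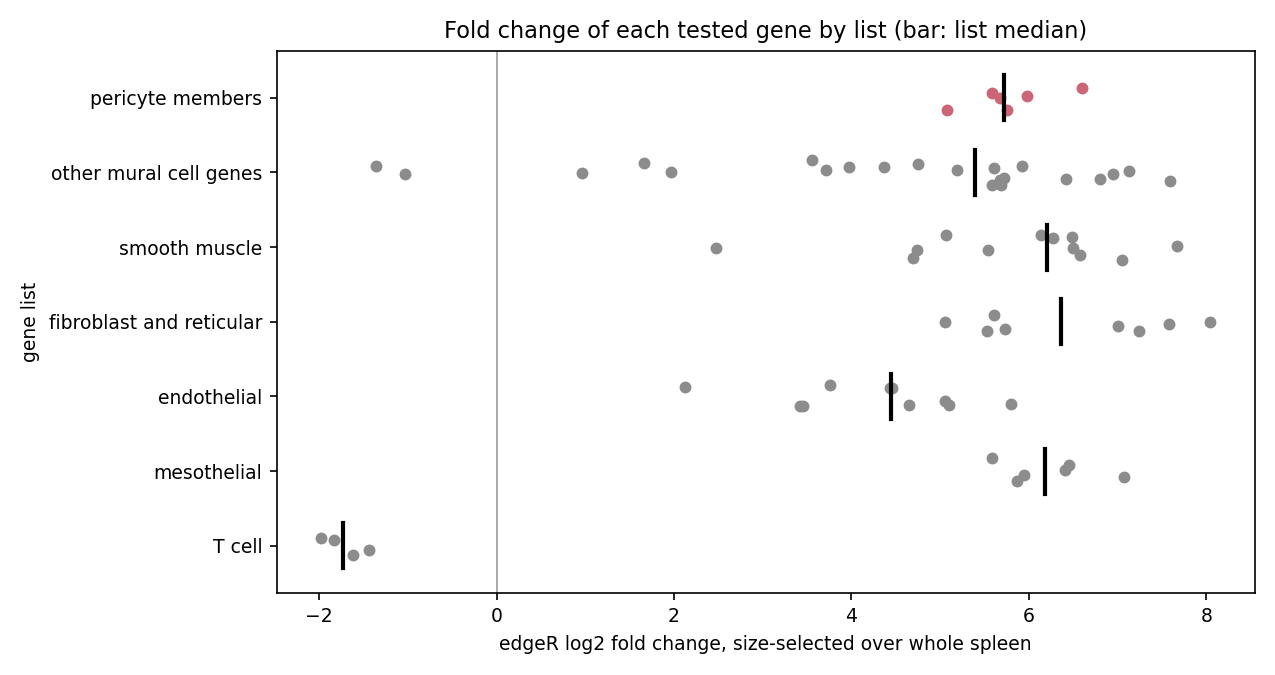
Log2 fold change of every tested gene by list, size-selected over whole spleen, with 1 point per gene, a black bar at the list median and the 6 tested pericyte genes in red. The pericyte genes lie between 5.07 and 6.60, inside the ranges of the smooth muscle and fibroblast genes.

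To set the members beside 2 neighbouring cell types, ratios were taken within each sample. Each member's count was divided by the summed counts of the endothelial and of the smooth muscle list. The log2 ratios were compared between the groups with an exact two-sided permutation test, adjusted over 14 ratios. No ratio was made to the fibroblast and reticular list. Against the endothelial sum all 6 tested members were higher in size-selected samples: Cspg4 by 3.46, Rgs5 by 2.30, Heyl by 2.03, Ndufa4l2 by 1.93, Abcc9 by 1.81 and Mcam by 1.00 on the log2 scale. The exact adjusted p was 0.000725 to 0.000932, and the ratio was higher in 8 of 8 pairs for all but Ndufa4l2, with 7 of 8. With 2 in place of 0.5 added to each count, the differences were 2.59 for Cspg4, 1.83 for Rgs5, 1.60 for Heyl, 1.34 for Ndufa4l2, 1.68 for Abcc9 and 0.95 for Mcam, and the calls held (exact permutation adjusted p = 0.000435 to 0.00354). The smallest p that these splits allow is 0.000155 before adjustment. Rgs5, Cspg4, Heyl and Ndufa4l2 passed the filter through the size-selected group, with whole spleen median counts of 7, 2, 8 and 2.5. Their ratios and p-values, here and in the ratios below, are therefore a description. The endothelial sum is led by Plvap, at 2428 CPM against 110 CPM, followed in whole spleen by Pecam1, at 280 against 64.5 CPM. Pecam1 had the smallest log2 fold change of the list, 2.12, and makes up more of the whole spleen sum than of the size-selected sum. Ratios to a sum without Pecam1 were not tested. Single endothelial genes differed from the sum: Tek had a log2 fold change of 5.80, above those of Rgs5, Abcc9, Heyl and Mcam. Emcn (5.10) and Kdr (5.06) lay close to Mcam (5.07).

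Against the smooth muscle sum 2 of the 6 ratios passed the adjustment, neither in every setting, and the members were not tested against each other. Mcam was lower relative to smooth muscle in size-selected samples, with a difference of -0.82 (log2 ratio -4.64 ± 0.42 against -3.82 ± 0.70, exact permutation adjusted p = 0.0245, lower in 8 of 8 pairs). Without number 407 this was -0.80 (exact permutation adjusted p = 0.0520) and without number 460 it was -0.64 (0.0843). Cspg4 was higher relative to smooth muscle, by 1.63 (-5.99 ± 0.25 against -7.62 ± 1.90, exact permutation adjusted p = 0.0363, higher in 7 of 8 pairs), on whole spleen counts of 0 to 18. With 2 in place of 0.5 added to each count the difference for Cspg4 was 0.77 (exact permutation adjusted p = 0.147), with the samples paired by number it was 1.63 (exact sign-flip adjusted p = 0.0608), and it missed the threshold without any 1 of the numbers 407, 408, 435, 436, 447 and 460 (exact permutation adjusted p = 0.0526 to 0.0997). For Rgs5 (0.48), Heyl (0.20), Ndufa4l2 (0.10) and Abcc9 (-0.01) the ratio to smooth muscle did not differ beyond the spread between samples (exact permutation adjusted p = 0.528 to 0.979). The ratios of Higd1b rest on the value added to its 0 counts in whole spleen and are not read.

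Abcc9 was compared with the rest of the KATP channel. Of the 4 subunit genes, Abcc9 and Kcnj8, which encodes the pore subunit Kir6.1 that partners SUR2 in vessels, passed the filter and both were higher. Kcnj8 was at 135 ± 41.4 CPM against 10.3 ± 1.64 CPM, higher by 3.71 on the log2 scale (SE 0.19; edgeR adjusted p = 6.87e-11). The pancreatic and neuronal subunit genes Abcc8 and Kcnj11 had at most a few counts: Abcc8 was at 0.131 ± 0.193 CPM in size-selected samples and Kcnj11 at 0 in whole spleen. In the fit with no filter Abcc8 was called higher (edgeR adjusted p = 0.0352), on counts of 0 to 7 in size-selected samples, and Kcnj11 was not called (0.352). The log2 ratio of Abcc9 to Kcnj8 was -0.78 ± 0.34 in size-selected samples and -3.00 ± 0.93 in whole spleen, a difference of 2.22 (exact permutation adjusted p = 0.000259, higher in 8 of 8 pairs). Kcnj8 was thus higher in whole spleen relative to its partner than in the size-selected samples.

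Rgs5 was set beside the other genes of its family. Of 21 RGS genes, 14 passed the filter; Rgs3, Rgs4, Rgs5, Rgs9, Rgs12, Rgs16, Rgs17 and Rgs18 were higher in size-selected samples, Rgs2, Rgs13, Rgs14 and Rgs19 were lower, and Rgs1 and Rgs10 were not called. That is 8 higher and 4 lower of 14, where 37.5% and 30.4% of all genes tested were, and the list median was 1.48. Rgs4, which is known from mural cells and neurons, was nearest to Rgs5 in size, at 34.2 ± 16.5 against 0.711 ± 0.459 CPM (log2 fold change 5.59, SE 0.39, edgeR adjusted p = 9.53e-10). Rgs16 was higher by 3.13, while Rgs19 was lower by a log2 fold change of -1.05 and Rgs2 by -0.67.

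Heyl was set beside the Notch pathway and its 2 closest relatives. Of 13 pathway genes tested, Heyl included, 12 were higher and Notch2 was not called (log2 fold change 0.30, edgeR adjusted p = 0.209), with a list median of 4.16. Over all genes tested, 37.5% were higher. Heyl, Notch3 and Hey2, with whole spleen median counts of 8, 8 and 0, passed the filter through the size-selected group. The count and the median are therefore a description. The ligand genes Jag1 (5.53) and Dll4 (4.58) and the receptor genes Notch3 (6.94) and Notch4 (4.58), the latter known from endothelium, were among the higher ones. Hey1, which endothelial and other cells use, was at 32.0 ± 11.7 against 4.14 ± 1.03 CPM (2.95, SE 0.22), and Hey2 at 5.12 ± 2.23 against 0.0697 ± 0.150 CPM (6.01, SE 0.62). The log2 ratio of Heyl to Hey1 was 0.28 ± 0.37 in size-selected samples and -2.89 ± 1.86 in whole spleen, a difference of 3.17 (exact permutation adjusted p = 0.000259, higher in 8 of 8 pairs). The ratio of Heyl to Hey2 differed by -0.20 (exact permutation adjusted p = 0.797), with 2.97 ± 0.59 and 3.17 ± 2.05, and the low counts of both genes in whole spleen leave a wide spread.

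The mitochondrial members and their common paralogs went in opposite directions. Ndufa4 was at 128 ± 21.4 CPM, against 211 ± 29.9 CPM in whole spleen, a log2 fold change of -0.72 (edgeR adjusted p = 1.5e-05), against 5.98 for Ndufa4l2. The log2 ratio of Ndufa4l2 to Ndufa4 was -3.07 ± 0.68 in size-selected samples and -9.79 ± 1.15 in whole spleen, a difference of 6.71 (exact permutation adjusted p = 0.000259, higher in 8 of 8 pairs). Cox4i2, the paralog of a cytochrome oxidase subunit and itself known from pericytes, was higher (3.36 ± 2.34 against 0.279 ± 0.168 CPM, log2 fold change 3.55, SE 0.46, edgeR adjusted p = 1.75e-06), while the common form Cox4i1 was lower (-0.46). Higd1a was at 44.2 ± 3.64 against 75.4 ± 11.1 CPM (-0.77, edgeR adjusted p = 8.82e-07). Ndufa4, Cox4i1 and Higd1a were lower under each of the 19 other settings, scaling by library totals included. Higd2a was at -0.26 (edgeR adjusted p = 0.0594), and was called lower in 5 of 19 other settings, over which it ranged from -0.38 to -0.14.

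**Figure D3:**
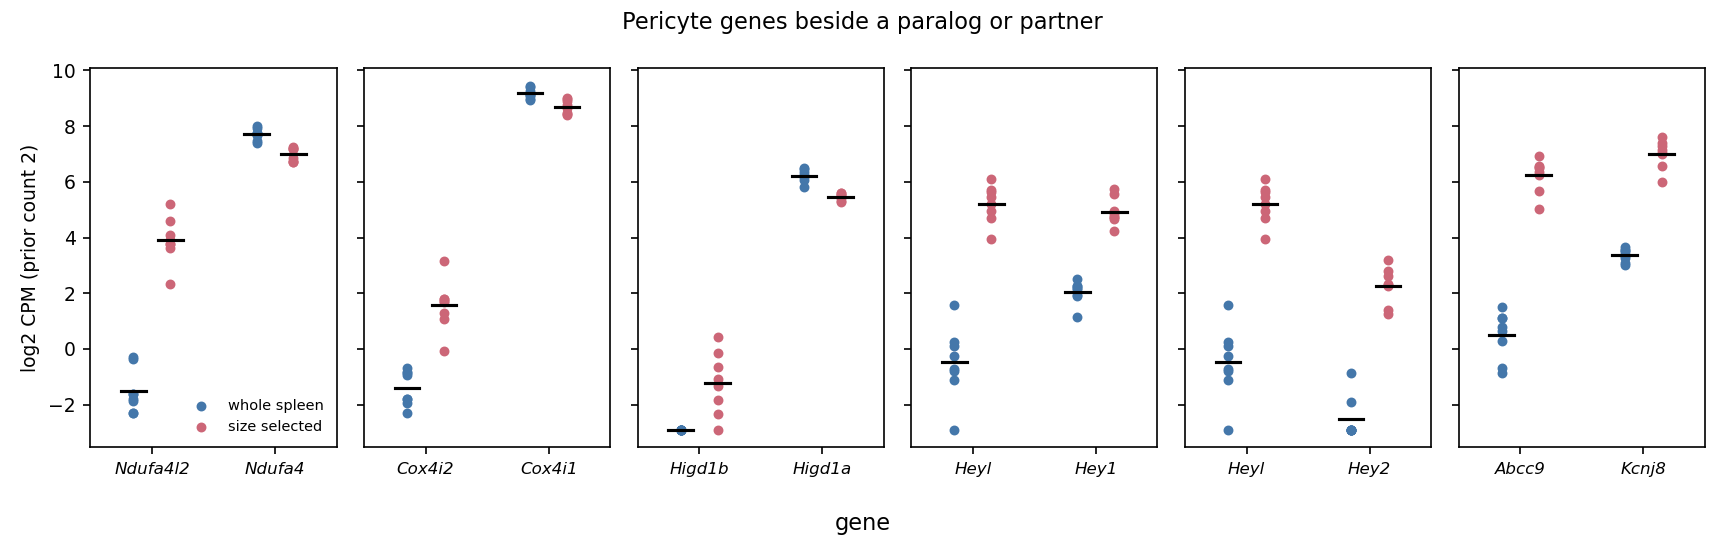
Level of pericyte genes and of Cox4i2 beside a paralog or partner, as log2 CPM with a prior count of 2; blue points are whole spleen samples, red points size-selected samples and black bars group means. Ndufa4l2 and Cox4i2 were higher in size-selected samples while Ndufa4, Cox4i1 and Higd1a were lower, and Hey1, Hey2 and Kcnj8 were higher together with Heyl and Abcc9.

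Since Ndufa4l2 is known as a target of hypoxia-inducible factors, 11 other targets were looked at. Of these, 5 were higher (Adm by 1.90, Vegfa by 1.71, Car9 by 1.53, P4ha1 by 1.27 and Bnip3 by 0.76), 3 were lower (Pgk1 at -0.33, Ldha at -0.37 and Ankrd37 at -0.65) and 3 were not called, with a median of 0.26. These counts are near the background of 37.5% higher and 30.4% lower over all genes tested. The call of Ankrd37 was lost in 8 of 19 other settings, with -0.26 on the counts freed of a constant factor (edgeR adjusted p = 0.360). The adhesion genes most related to Mcam did not move alike: Bcam, known from smooth muscle and endothelium, was higher at 237 ± 96.6 against 9.77 ± 5.83 CPM (4.60), and Alcam was at -0.41 (edgeR adjusted p = 0.0745, and 0.0311 with the samples paired by number).

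Among the 8 size-selected samples, the members varied by different amounts. The coefficient of variation was 31.0% for Mcam, 34.5% for Abcc9, 41.2% for Heyl, 41.8% for Rgs5, 42.6% for Cspg4, 55.9% for Ndufa4l2 and 98.8% for Higd1b. Sample 427 was the highest for 6 of 7 members, all but Abcc9, and sample 408 the lowest for 5 of 7, all but Abcc9 and Higd1b. Highest over lowest, the ratio of CPM was 2.43 for Mcam, 3.22 for Rgs5, 3.75 for Abcc9, 4.40 for Heyl, 5.02 for Cspg4 and 7.63 for Ndufa4l2. In the same size-selected sample 427 the smooth muscle, endothelial and dissociation sums were also the highest of the 8, at 4698, 6533 and 6476 CPM. Sample 408 had the lowest smooth muscle, endothelial and dissociation sums, 975, 2447 and 3069 CPM. The fibroblast and reticular sum was instead highest in 436, at 3797 CPM against 3605 in 427, and lowest in 435, at 1199 CPM against 1263 in 408. Whole spleen 427 was highest for Rgs5, Cspg4, Mcam and Heyl, and also had the highest endothelial, smooth muscle and dissociation sums of its group, 528, 118 and 917 CPM. Their part in these values was not tested. Without number 427 the log2 fold changes were 6.24 for Rgs5, 6.97 for Cspg4, 5.99 for Heyl and 5.06 for Mcam.

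**Figure D4:**
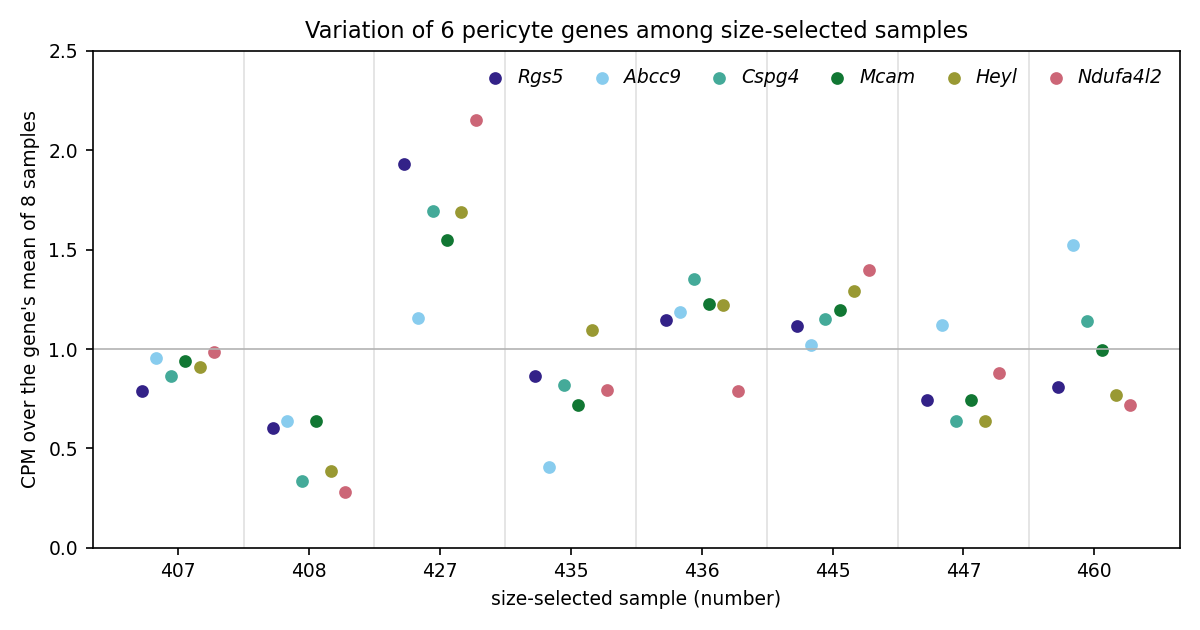
CPM of 6 pericyte genes in each of the 8 size-selected samples, divided by the gene's mean over these samples, with samples in order of their number and 1 colour per gene. Rgs5, Cspg4, Mcam, Heyl and Ndufa4l2 are highest in sample 427 and lowest in sample 408, while Abcc9 is highest in 460 and lowest in 435.

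Rgs5, Cspg4, Mcam and Heyl varied together over the size-selected samples. Pearson's r of log2 CPM was computed for the 21 pairs of members over 8 samples with an exact permutation test over all pairings, adjusted over the 21, and Spearman's rho likewise. Of the 21 values of r, 20 were above 0; 10 passed by r and 5 of these also by rho. These 5 were Cspg4 with Heyl (r = 0.92, rho = 0.88), Cspg4 with Mcam (0.91, 0.98), Rgs5 with Mcam (0.91, 0.86), Rgs5 with Heyl (0.89, 0.95) and Rgs5 with Cspg4 (0.85, 0.93), with exact permutation adjusted p-values of 0.0112 to 0.0312 for r and 0.0083 to 0.0450 for rho. Mcam with Heyl passed by r alone (r = 0.83, exact permutation adjusted p = 0.0312; rho = 0.81, 0.0762). Without the 2 samples farthest from the median of the first gene, r for these 6 pairs was 0.59 to 0.90. The other 4 pairs that passed by r join Ndufa4l2 with Rgs5, Cspg4, Mcam and Heyl (r = 0.79 to 0.88, exact permutation adjusted p = 0.0244 to 0.0356; rho = 0.52 to 0.71, adjusted p = 0.151 to 0.295). Without the 2 farthest samples their r was 0.04 to 0.41, so these 4 relations rest on those samples. For Abcc9, and likewise for the low Higd1b, r to the other 6 was -0.31 to 0.61, with none past the threshold, and no test compared these values of r with those of other pairs.

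The same samples were used to set the members beside 3 cell type lists, each taken as the mean log2 CPM of its tested genes. These 21 relations were adjusted in a family of 28. The median r of the 7 members was 0.77 with the endothelial list, 0.71 with smooth muscle and 0.67 with fibroblasts and reticular cells. Of the 21, only Cspg4 with smooth muscle passed the adjustment by r (r = 0.92, exact permutation adjusted p = 0.0312; rho = 0.88, adjusted p = 0.0861), and none of the 21 passed by rho. Its r was 0.71 without the 2 samples farthest from the median of the list. All samples share the scaling of their library, which bears on every one of these values.

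**Figure D5:**
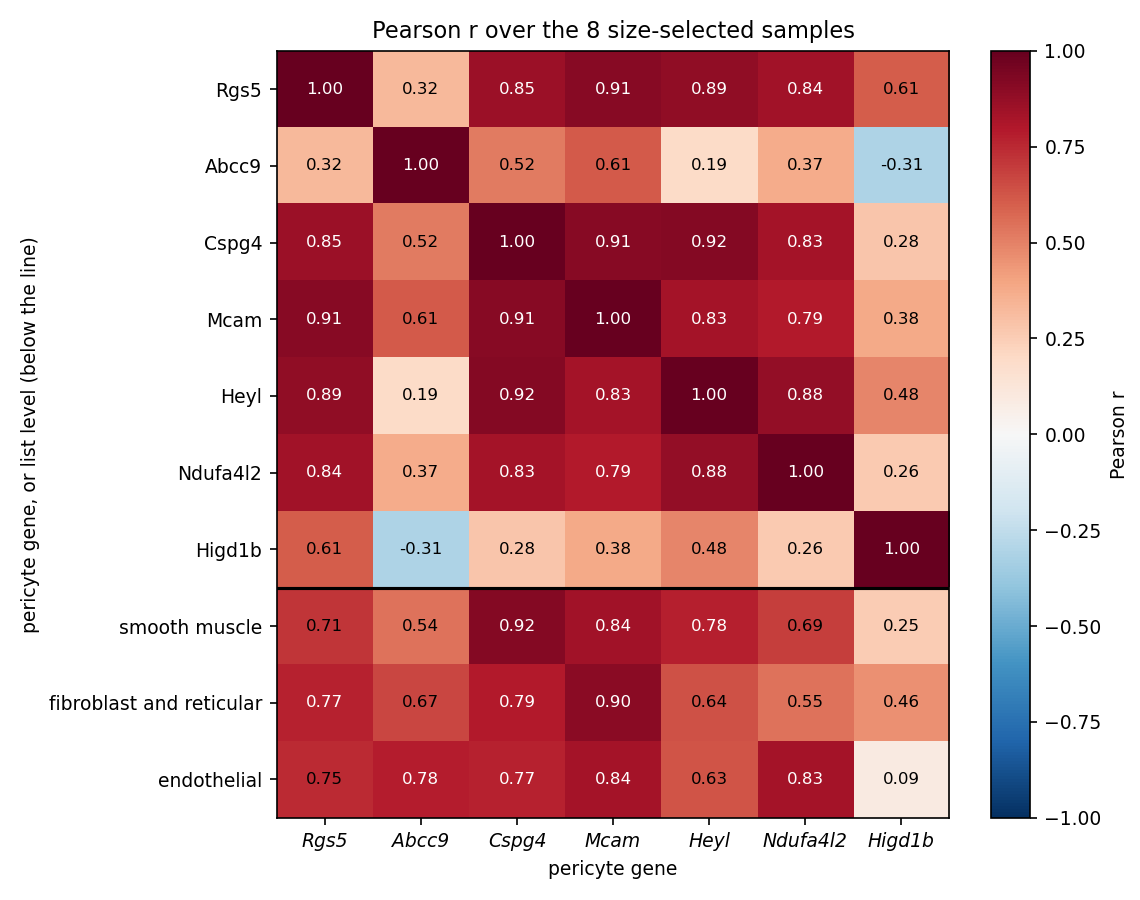
Pearson's r of log2 CPM over the 8 size-selected samples, for pairs of pericyte genes (above the line) and for each pericyte gene with the level of a cell type list (below it), from blue at -1 to red at 1. Rgs5, Cspg4, Mcam and Heyl show values of 0.83 to 0.92 with each other, and Abcc9 and Higd1b values of -0.31 to 0.61 with the other members.

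The genes whose levels over the size-selected samples were most like the mean standardised level of the 6 tested members were Cx3cl1 (r = 0.99), Mpzl1, Dgkb, Slc27a3, Efnb2, Arhgef25, Adam15, Aldh6a1, Cavin1 and Fam171a1 (r = 0.98), over 8 samples and among 10104 genes whose log2 CPM averaged 3 or more. Cx3cl1 encodes the membrane-bound chemokine fractalkine, Efnb2 the ephrin-B2 ligand of arteries and mural cells, and Cavin1 a coat protein of caveolae. The same 10 genes were named with a prior count of 0.5 and with scaling by library totals, and 8 of the 10 on counts freed of a constant factor. The members are themselves part of the mean they were ranked against, so their places are only a description: Mcam stood at place 35, Cspg4 at 45, Rgs5 at 278, Heyl at 451, Ndufa4l2 at 453 and Abcc9 at 3040. Of genes outside that mean, Pdgfrb stood at place 46, the smooth muscle genes Acta2 and Myh11 at 294 and 916, the endothelial genes Pecam1 and Cdh5 at 372 and 617, the mural receptor gene Notch3 at 901 and the channel partner Kcnj8 at 2215.

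Sex was compared within each group, with 4 female and 4 male samples. No member was called by edgeR in size-selected samples, where 6 members and 15127 genes were tested and 0.0397% of genes were called, or in whole spleen, where 2 members and 13383 genes were tested and 0.194% were called. These 26 calls in whole spleen became 261 without number 427, 87 without 436, 17 without 407, 12 without 435, 8 without 445 or 447 and 7 without 460, with no member among them. At an unadjusted p under 0.05, 4.18% and 16.1% of genes passed, with 1 member in each group, Abcc9 and Mcam. In size-selected samples Abcc9 was at 97.0 ± 17.4 CPM in females and 63.0 ± 26.6 CPM in males, a log2 difference of 0.62 (SE 0.27, adjusted p = 0.999 in edgeR's quasi-likelihood test). In whole spleen Mcam was at 2.34 ± 0.52 CPM in females and 3.82 ± 0.73 CPM in males, a log2 difference of -0.71 (SE 0.31, adjusted p = 0.292 in the same test). The difference between size-selected and whole spleen samples was also compared between the sexes by an interaction term, where 0% of 15760 genes were called by edgeR and 4.72% had an unadjusted p under 0.05. Of the members, 2 had an unadjusted p under 0.05: Rgs5 at 2.03 (SE 0.88) and Mcam at 0.82 (SE 0.38), and neither passed the adjustment. Fitted in males alone and in females alone, the log2 fold change of Rgs5 was 4.92 and 7.02 and that of Mcam 4.63 and 5.51, and all 6 tested members were called higher in both, where 27.1% of all genes in males and 36% in females were. DESeq2 called no member in these 3 comparisons.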

How the data were processed

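RNA was sequenced from 8 size-selected and 8 whole spleen samples. Per the submitters' processing notes, Trim Galore, STAR, RSEM, DESeq and mm10 were used, with no version, role or order stated. The deposited table of the whole series holds RSEM-style estimated counts per gene. Per the file headers, the authors' deposited table of enriched genes gives a mean signal, log2 fold changes with their error, a test score, p-values, and mean TPM and FPKM.

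In size-selected columns 3898 genes above 0 carry values that are whole numbers times a constant: 3 constants per column were found, of 0.659 to 0.789, 0.770 to 0.858 and 0.889 to 0.964. Rgs5, Abcc9, Cspg4, Mcam and Heyl carry the highest and Higd1b the lowest; counts divided by the constants ("restored counts") are an alternative, and the origin of the constants is not given in the sources used here. Counts were rounded and tested with edgeR 4.0.16 (filterByExpr minimum count 10, TMM, quasi-likelihood, Benjamini-Hochberg at 0.05) in R 4.3.3, with DESeq2 1.42.0 and limma 3.58.1 as alternatives; scripts were tested on simulated data. Ratios had 0.5 added to each count and were compared by exact permutation over 12870 splits. Same-numbered samples deviated together (r = 0.12 to 0.38 in 8 of 8 pairs, mean 0.21, against -0.03 for different numbers), so the numbers were taken to pair the samples. This pairing enters the counts of pairs and the replicate block, while the main edgeR fit and the 12870 splits leave it out. Coordinates and exon lengths are from GENCODE M21 on mm10, promoters from RefSeq. Symbols matching more than 1 ID (Ccl19, Ccl21a) were left out of the lists. Relations of members with 4 lists were adjusted together, and the results of 1 of these lists are not reported here.

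The members and lists were chosen with earlier results of these data known. The text names the members, genes of a family, pathway or cell type list fixed for a member, and the 10 genes most like the members; Shmt2 was added after the data were seen. PCR copies are not marked, so counting limits cover counting error only.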

Additional observations from a re-analysis of the deposited data

How the results depend on the processing

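The 6 tested members were called higher under each of 19 other settings (scaling, filter, DESeq2, limma-voom, replicate block, sex as a covariate, restored counts, 1 sex alone and each number left out), with log2 fold changes of 4.92 to 7.02 for Rgs5, 5.29 to 6.07 for Abcc9, 6.07 to 7.52 for Cspg4, 4.63 to 5.51 for Mcam, 5.09 to 6.15 for Heyl and 5.39 to 6.82 for Ndufa4l2. Scaling by library totals moved the median of all genes from 0.05 to 0.18. With the replicate block, the samples paired by number, 10076 genes in place of 9855 were called and the log2 fold changes were 5.88 for Rgs5, 5.79 for Abcc9, 6.74 for Cspg4, 5.05 for Mcam, 5.75 for Heyl and 5.91 for Ndufa4l2; of the results on members, the block changed the call of 1, the ratio of Cspg4 to smooth muscle. Higd1b was called in the fits without a filter, with the block or on restored counts too (both chosen after seeing the data), and its lower bound on restored counts was 20.2-fold.

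On restored counts, 2 relations of members with cell type lists passed in place of 1, the added one being Mcam with fibroblasts and reticular cells (r = 0.90). Several values that were not called changed sign. With 2 added to each count the difference in the ratio to smooth muscle was -0.22 for Heyl and -0.49 for Ndufa4l2, and that of Heyl to Hey2 was 0.97; on restored counts Ndufa4l2 to smooth muscle was -0.032. In males alone Notch2 was at -0.11. With 1 number left out at a time, the sex difference in size-selected samples ranged from -0.31 to 0.28 for Rgs5, -0.059 to 0.62 for Cspg4, -0.028 to 0.39 for Mcam, -0.33 to 0.24 for Heyl and -0.46 to 0.40 for Ndufa4l2, and that of Abcc9 in whole spleen from -0.65 to 0.19. Likewise the ratio to smooth muscle ranged from -0.35 to 0.43 for Heyl, -0.12 to 0.38 for Ndufa4l2 and -0.21 to 0.13 for Abcc9, and that of Heyl to Hey2 from -0.47 to 0.24. Of the 12 ratios to lists without Higd1b, 8 passed, 7 with the replicate block, 7 with 2 added and 6 to 8 with 1 number left out. For sex, DESeq2 called 22 genes in size-selected samples and 518 in whole spleen, where edgeR called 6 and 26, and 3 genes in the interaction, where edgeR called 0, or 3 with the replicate block and 1 without number 445; none was a member. The 26 calls in whole spleen became 273 with no filter and 7 to 261 with 1 number left out, with no member called. In males alone Ggt1, Car9, Pgk1 and Rgs14 kept their direction and were not called, and in females alone Notch2 was called (0.51). The cause was not tested. Whole spleen counts of 0 to 57 per member limit the precision of every fold change.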
